A study of Mus musculus with 16 samples.

Results

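Collagens and laminins are the structural proteins from which cells build extracellular matrix. The genes described here are the 55 protein-coding mouse genes whose symbols name a collagen alpha chain (44 genes) or a laminin chain (11 genes), out of 48709 gene identifiers in the RNA tables. They were chosen by symbol, with no measured value entering the choice. The series holds 16 libraries of progenitor cells that FACS had sorted from the embryonic mouse cochlea, where they give rise to the organ of Corti. The later cells were taken at E13.5 by GFP reported from p27, the cell-cycle inhibitor that marks cochlear progenitors as they stop dividing. The earlier cells were taken at E12.0 by GFP reported from Sox2, a transcription factor of sensory progenitors. Each stage had 2 RNA-seq, 3 ATAC-seq and 2 H3K27ac CUT&RUN libraries, and E12.0 also had 2 pan-Tead CUT&RUN libraries. Stage and reporter changed together in every library, so the effect of age and the effect of the sort cannot be told apart. The labels name neither strain, reporter allele design, nor the number of pooled embryos. Nothing in them states that the replicates are independent litters, and the p-values below therefore cover the spread between these libraries only, which may be technical. The protocols give the ages as E12 and E13, and the titles as E12.0 and E13.5.

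Fibrillar collagens assemble into banded fibrils, FACIT collagens decorate the surface of such fibrils, and collagen IV forms the network of the basement membrane, the thin sheet on which an epithelium sits. Laminins are trimers of an alpha, a beta and a gamma chain, and they are the first scaffold to polymerise when a basement membrane forms. In the cochlea, collagens II, IX and XI are later components of the tectorial membrane that overlies the hair cells, and mutations of collagen XI and collagen IV chains are known causes of hearing loss.

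The RNA libraries summed to 17057725 and 19570863 counts at E13.5 and to 9412287 and 9810541 counts at E12.0. The mitochondrial ribosomal RNA mt-Rnr2 took 0.295% and 0.180% of counts at E13.5, against 17.0% and 13.2% at E12.0. The prosensory markers were present at both stages: the 11 listed genes summed to 4368 and 4814 CPM (counts scaled to the depth of a library) at E13.5 and to 2848 and 2868 CPM at E12.0. Of 10 periotic mesenchyme markers, 5 passed the filter, and 3 of these fell (Lum, Vim and Postn). Their sum was 835 and 1032 CPM at E13.5, against 3122 and 2429 CPM at E12.0, and the defining factors Pou3f4, Tbx18, Prrx1 and Twist1 reached at most 0.825 CPM, with Tbx15 at 0 in every library. The 8 cartilage markers summed to 476 and 460 CPM at E13.5 and to 527 and 466 CPM at E12.0, almost all of it from Sox9, while Acan was at most 0.0953 CPM and Snorc was at 0. Endothelial and pericyte markers summed to 12.2 and 23.1 CPM at E13.5, against 11.8 and 12.48 CPM at E12.0. Glial and neural crest markers summed to 646 and 681 CPM at E13.5 and to 1792 and 2102 CPM at E12.0, with 2 of 4 tested genes higher (Sox10 and Cdh19) and 1 lower (Erbb3). Melanocyte markers summed to 4.67 and 27.9 CPM at E13.5, against 4.26 and 3.30 CPM at E12.0, so the second E13.5 library stood apart. Neuronal markers summed to 858 and 819 CPM at E13.5 and to 383 and 305 CPM at E12.0, most of it from Isl1, which the prosensory list also holds.

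The collagen and laminin genes took a larger part of the RNA at E13.5 than at E12.0. They held 0.934% and 0.878% of all counts at E13.5, against 0.217% and 0.241% at E12.0. In CPM, on the scale used for the test, the contrast was smaller. They summed to 7584 and 7281 CPM at E13.5 and to 2804 and 2783 CPM at E12.0. Scaled for transcript length as well, in TPM, they summed to 4866 and 4229 TPM at E13.5 and to 1042 and 1311 TPM at E12.0. Of the 55 genes, 40 passed the filter on low counts, and 25 of these rose while 2 fell and 13 did not pass the test (edgeR quasi-likelihood, Benjamini-Hochberg adjusted p under 0.05 over 15982 genes). Among all genes tested, 22.4% rose and 23.5% fell, 45.9% in either direction. The median log2 fold change of the 40 genes was 1.94, against 0.05 over all genes tested. Most of these genes are long, and among the 1980 protein-coding genes at least as long as the median collagen or laminin transcript, 19.5% rose and the median log2 fold change was -0.09. In bulk sorted cells, fewer cells making a transcript and less RNA per cell cannot be told apart. Of the 27 calls, 19 held under all 10 alternative settings, 18 of them higher and 1 lower.

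**Figure D1:**
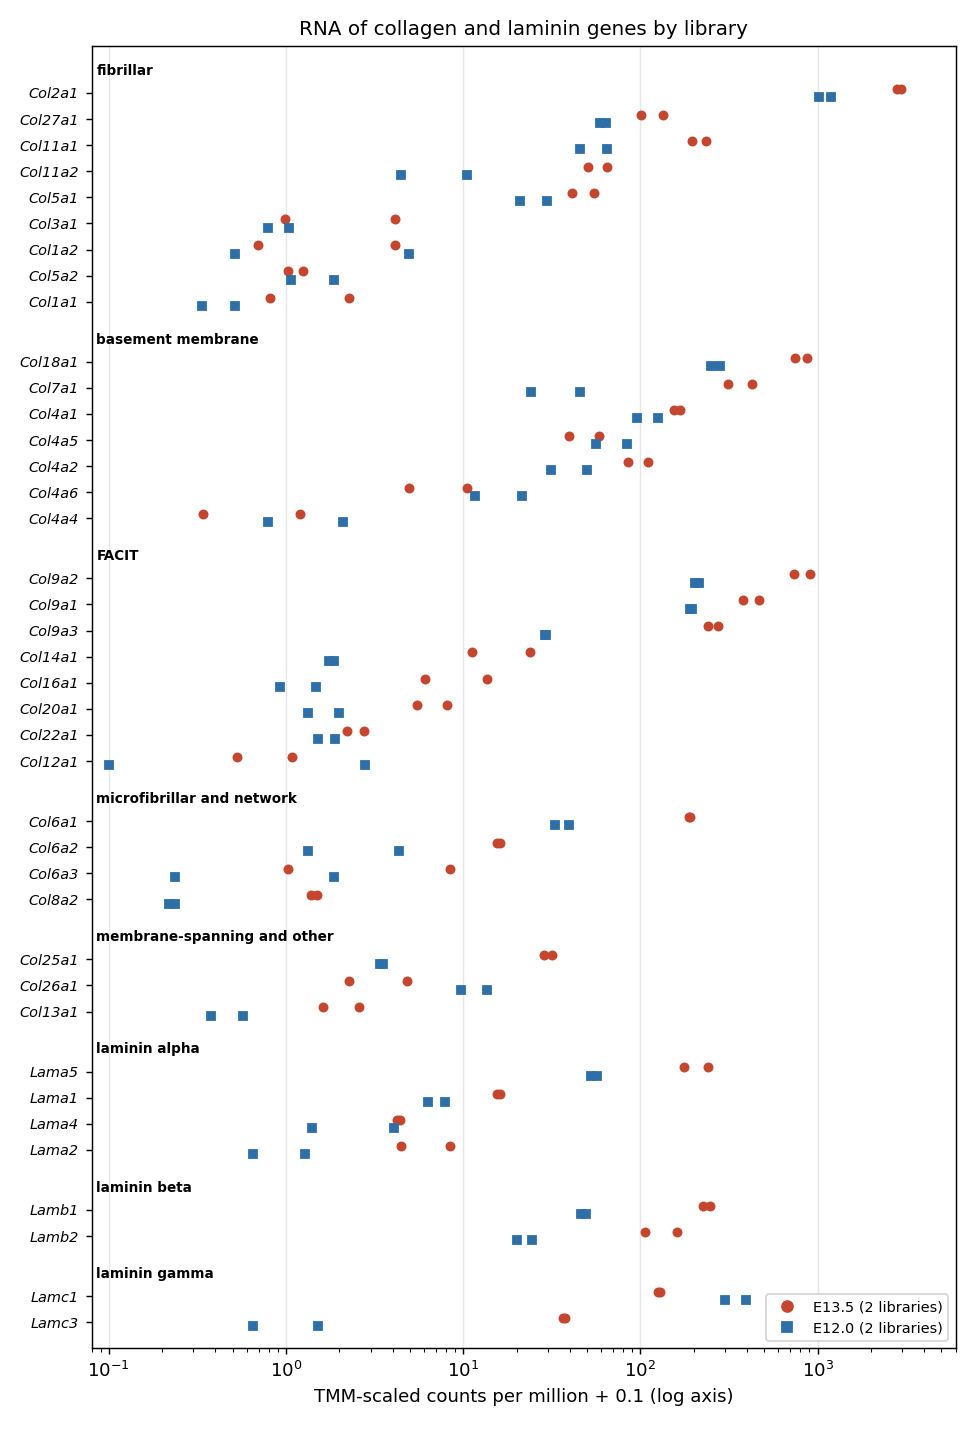
TMM-scaled CPM plus 0.1 (log axis) of the collagen and laminin genes that passed the filter and are described in the text, one row a gene, grouped by class and ordered by mean TPM. Circles are the 2 E13.5 libraries and squares the 2 E12.0 libraries; the E13.5 points lie to the right in most rows, while those of Lamc1, Col26a1 and Col4a6 lie to the left of E12.0.

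**Figure D2:**
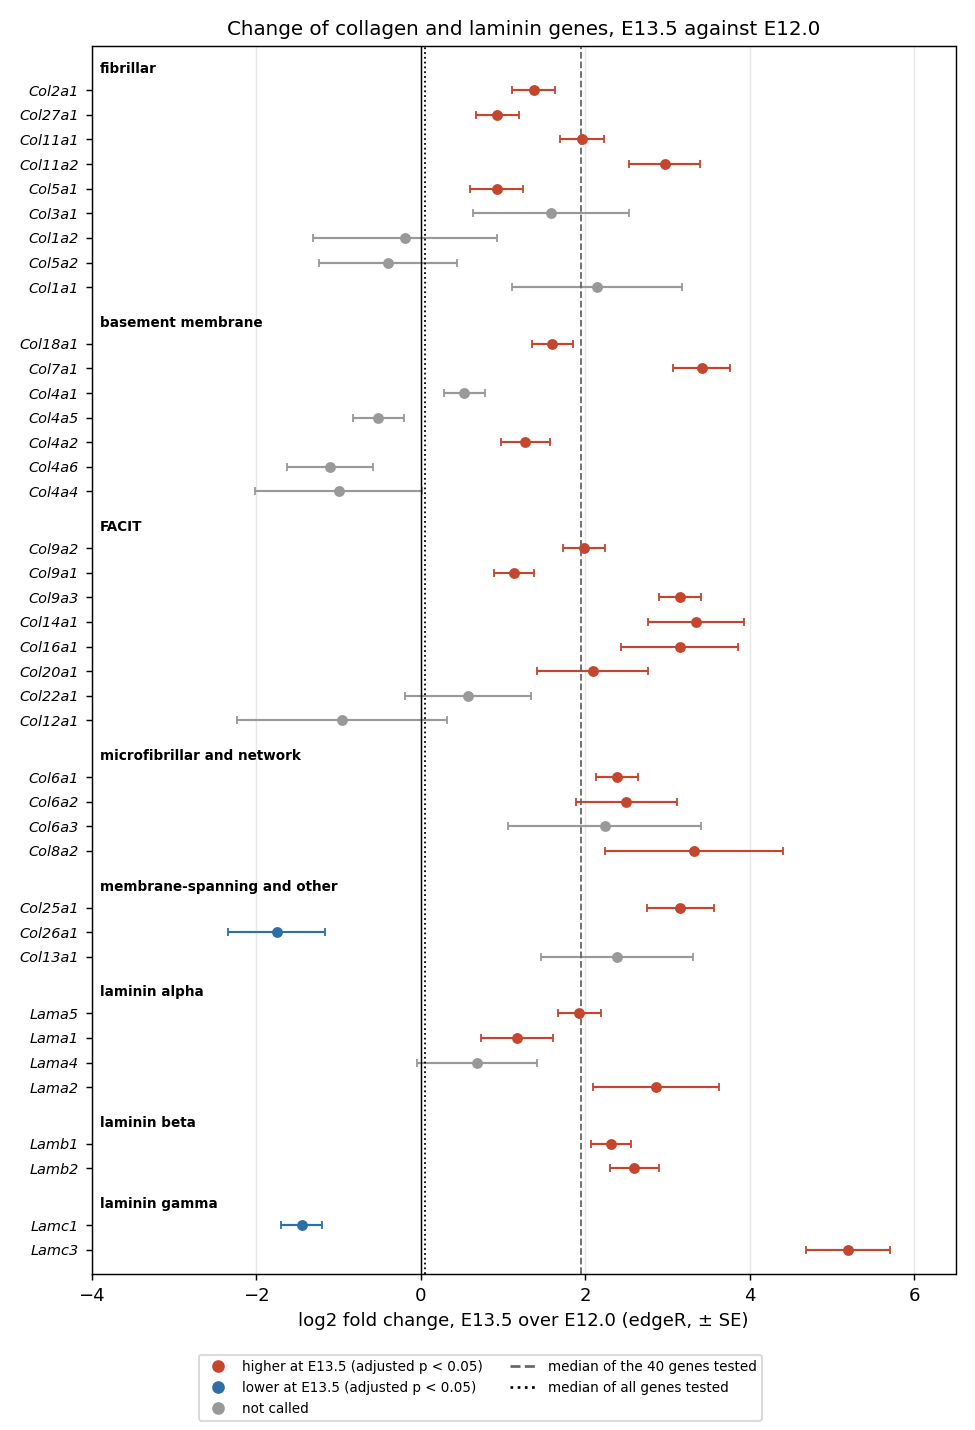
Log2 fold change of the same genes, E13.5 over E12.0, with its standard error from edgeR. Coloured points passed the adjusted threshold of 0.05; the dashed line is the median of all 40 genes that passed the filter (1.94) and the dotted line the median of all 15982 genes tested (0.05).

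Among the fibrillar collagens, Col2a1, Col11a1, Col11a2, Col27a1 and Col5a1 rose. Of 11 genes, 9 passed the filter and 5 rose, none fell, and the median log2 fold change was 1.37. Col2a1 (chr15:97975602-98004724), the single chain of collagen II, had 2942 and 2796 CPM in the E13.5 libraries, against 1193 and 1022 CPM in the E12.0 libraries. The E13.5 libraries lay above both E12.0 libraries, and Col2a1 rose by 1.37 ± 0.26 (SE, n = 2 libraries a stage) on the log2 scale, with an adjusted p of 0.00193, in edgeR's quasi-likelihood test. Col2a1 had the highest TPM of the 55 genes in every library except the second E12.0 library, where Lamc1 had 315 and Col2a1 304 TPM, and it made up 35.8% and 36.0% of the summed TPM at E13.5 and 27.1% and 23.2% at E12.0. That direction depended on the transcript lengths assigned in each library. With each gene's length held at its mean over the libraries, the Col2a1 share was 30.8% and 31.6% at E13.5, against 37.1% and 32.3% at E12.0. Col11a1, a chain of the collagen XI that limits fibril diameter, had 195 and 234 CPM in the E13.5 libraries, against 45.5 and 64.6 CPM in the E12.0 libraries. Its partner Col11a2 had 64.4 and 50.8 CPM in the E13.5 libraries, against 10.45 and 4.36 CPM in the E12.0 libraries. Neither gene's stages overlapped, with a log2 fold change of 1.96 ± 0.27 (SE; adjusted p = 0.000308) for Col11a1 and of 2.97 ± 0.43 (SE; adjusted p = 0.000404) for Col11a2 (edgeR). Col27a1, a short fibrillar collagen of cartilage, had 134 and 100.2 CPM in the E13.5 libraries, against 59.1 and 63.7 CPM in the E12.0 libraries. Col5a1, a chain of the collagen V that nucleates fibrils, had 54.4 and 41.2 CPM in the E13.5 libraries, against 29.7 and 20.8 CPM in the E12.0 libraries. Both rose in edgeR, Col27a1 by 0.93 ± 0.26 (SE; adjusted p = 0.0138) and Col5a1 by 0.92 ± 0.32 (SE; adjusted p = 0.038). The Col27a1 call was lost without E13.5 replicate 1 (adjusted p = 0.112) or E12.0 replicate 1 (0.0537), and the Col5a1 call without E13.5 replicate 1 (0.214) or E12.0 replicate 2 (0.139). Over all settings adjusted p ran between 0.00187 and 0.112 for Col27a1 and between 0.00367 and 0.214 for Col5a1. Sox9, which gave almost all CPM of the cartilage list, had 474 and 457 CPM in the E13.5 libraries, against 522 and 460.4 CPM in the E12.0 libraries. Its log2 fold change of -0.08 did not pass the test (adjusted p = 0.812, edgeR). Its sign was positive without TMM scaling and without E12.0 replicate 1, and on log2(TPM + 1) Sox9 was called higher (0.76, limma, adjusted p = 0.0231). The part of cartilage cells in the fibrillar collagen values was not tested.

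The other tested fibrillar chains, Col1a1, Col1a2, Col3a1 and Col5a2, stayed below 5 CPM in every library, and none of them passed the test. Col1a1 had 0.714 and 2.16 CPM in the E13.5 libraries, against 0.413 and 0.235 CPM in the E12.0 libraries, with a log2 fold change of 2.14 ± 1.04 (SE; adjusted p = 0.114), edgeR. Col1a2, its partner in collagen I, had 4.05 and 0.593 CPM in the E13.5 libraries, against 0.413 and 4.83 CPM in the E12.0 libraries, so its libraries differed more within a stage than between stages. Col3a1 had 4.05 and 0.890 CPM in the E13.5 libraries, against 0.688 and 0.942 CPM in the E12.0 libraries, and only the first E13.5 library stood above the rest. Col5a2 had 1.14 and 0.932 CPM in the E13.5 libraries, against 0.963 and 1.77 CPM in the E12.0 libraries, with overlapping stages. The fitted log2 fold changes of Col1a2 (-0.19), Col5a2 (-0.40) and Col3a1 (1.58) had adjusted p of 0.902, 0.722 and 0.197 (edgeR).

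The Col11a1 promoter is shown because H3K27ac, a histone mark of active promoters and enhancers, was found beside its start in both E13.5 libraries and neither E12.0 library. The window is chr3:114030290-114030589 on the plus strand, from 250 bases before to 50 after the RefSeq start, and capitals mark GGGCGG or its reverse complement, the letters bound by Sp1 and Klf factors.
Col11a1: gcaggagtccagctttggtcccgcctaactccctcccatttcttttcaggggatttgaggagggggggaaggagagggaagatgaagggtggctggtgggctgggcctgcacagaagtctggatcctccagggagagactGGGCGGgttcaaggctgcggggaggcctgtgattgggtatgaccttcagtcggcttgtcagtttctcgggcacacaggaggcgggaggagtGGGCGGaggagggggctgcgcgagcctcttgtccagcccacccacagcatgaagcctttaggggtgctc
The H3K27ac region ran over chr3:114030056-114030391, its nearer edge 149 bp from the start, with a deposited fold over local background of 3.24 to 3.42. ATAC, which marks open chromatin by transposase cutting, gave a region there in all 6 libraries. Here and below, a library counted at a start if it had a peak in a merged region that came within 1 kb of that start.

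The collagens of basement membranes divided: collagens VII and XVIII and the Col4a2 chain rose, while the other collagen IV chains did not pass the test. Of 9 genes, 7 passed the filter, 3 rose, none fell, and the median log2 fold change was 0.53. Col18a1, the heparan sulfate collagen whose end fragment is endostatin, had 745 and 871 CPM in the E13.5 libraries, against 250.2 and 282 CPM in the E12.0 libraries. Col7a1, the anchoring fibril collagen, had 425 and 314 CPM in the E13.5 libraries, against 45.5 and 23.9 CPM in the E12.0 libraries. Both genes had E13.5 values well above E12.0, and they rose by 1.60 ± 0.25 (SE; adjusted p = 0.000608) and 3.41 ± 0.35 (SE; adjusted p = 5.27e-05) in edgeR. For Col7a1 the transcript length that the files assigned also differed, at 3050 and 3875 bp at E13.5 against 763 and 1248 bp at E12.0. On log2(TPM + 1), which uses those lengths, its log2 fold change was 2.29 (limma, adjusted p = 0.00219).

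Col4a1 and Col4a2 encode the chains of the common collagen IV trimer and start 21 bp apart on opposite strands. Col4a1 had 155 and 166 CPM in the E13.5 libraries, against 96.1 and 126 CPM in the E12.0 libraries, and Col4a2 had 85.5 and 111 CPM in the E13.5 libraries, against 50.1 and 31.2 CPM in the E12.0 libraries. Neither gene's stages overlapped. Col4a2 rose by 1.27 ± 0.30 (SE; adjusted p = 0.00628), whereas the Col4a1 log2 fold change of 0.53 ± 0.25 (SE; adjusted p = 0.103) did not pass edgeR's test; the difference between the pair was not tested. Without TMM scaling Col4a1 reached 1.09 (adjusted p = 0.00813) and on log2(TPM + 1) 1.198 (0.0234), with an adjusted p between 0.00813 and 0.385 over all settings. The window chr8:11312555-11312854 on the plus strand, the Col4a2 promoter, holds both starts, and its capitals mark GGGCGG or its reverse complement.
Col4a2: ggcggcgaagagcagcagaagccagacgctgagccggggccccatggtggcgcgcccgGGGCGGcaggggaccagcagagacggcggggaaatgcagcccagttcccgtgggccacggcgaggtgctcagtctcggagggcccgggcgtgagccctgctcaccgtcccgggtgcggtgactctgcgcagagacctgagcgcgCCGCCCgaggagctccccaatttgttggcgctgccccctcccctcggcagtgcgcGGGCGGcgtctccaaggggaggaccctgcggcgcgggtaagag
GC made up 73.67% of these bases, against a median of 52.67% over all promoter windows. ATAC gave a region at this shared promoter in 3 of 3 E13.5 and 3 of 3 E12.0 libraries, and H3K27ac in 1 of 2 E13.5 and 2 of 2 E12.0 libraries.

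The Col4a5 and Col4a6 chains, a second collagen IV pair that also starts back to back, 1343 bp apart, were not called in either direction. Col4a5 had 39.7 and 58.2 CPM in the E13.5 libraries, against 56.3 and 83.5 CPM in the E12.0 libraries, and Col4a6 had 10.4 and 4.87 CPM in the E13.5 libraries, against 21.5 and 11.5 CPM in the E12.0 libraries. Their log2 fold changes were -0.51 ± 0.31 (SE; adjusted p = 0.193) and -1.11 ± 0.52 (SE; adjusted p = 0.107) in edgeR; that of Col4a5 was 0.04 without TMM scaling, and Col4a6 was called lower without E13.5 replicate 1 (-1.76, adjusted p = 0.0409, of 0.0409 to 0.703 over all settings). Within collagen IV, Col4a5 took 12.8% and 18.3% of the family's TPM at E13.5, against 35.7% and 39.6% at E12.0, and Col4a2 took 27.1% and 29.5% at E13.5, against 17.8% and 7.94% at E12.0. Col4a4, of the trimer known from kidney and inner ear, had 0.238 and 1.10 CPM in the E13.5 libraries, against 0.688 and 2.00 CPM in the E12.0 libraries, with overlapping stages and a log2 fold change of -0.999 ± 1.01 (SE; adjusted p = 0.445), edgeR.

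Col18a1 has a pair of RefSeq starts 52825 bp apart, and their promoters are shown because ATAC differed between them. The window chr10:77166481-77166780 on the minus strand holds the upstream start, where capitals mark GGGCGG or its reverse complement; chr10:77113656-77113955, also minus, holds the downstream start, where capitals mark GGAATG or its reverse complement, the core letters bound by Tead factors.
Col18a1 upstream: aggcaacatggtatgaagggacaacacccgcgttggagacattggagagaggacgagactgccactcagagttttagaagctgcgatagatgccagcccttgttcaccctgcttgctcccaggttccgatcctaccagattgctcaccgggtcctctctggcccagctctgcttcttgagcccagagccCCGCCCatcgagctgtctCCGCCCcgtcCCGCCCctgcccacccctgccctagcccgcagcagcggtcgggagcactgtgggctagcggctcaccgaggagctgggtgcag
Col18a1 downstream: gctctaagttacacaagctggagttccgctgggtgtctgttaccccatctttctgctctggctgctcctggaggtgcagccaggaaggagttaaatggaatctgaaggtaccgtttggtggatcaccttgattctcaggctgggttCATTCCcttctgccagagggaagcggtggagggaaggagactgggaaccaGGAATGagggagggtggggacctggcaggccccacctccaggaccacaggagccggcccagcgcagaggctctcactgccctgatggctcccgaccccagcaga
The upstream start had ATAC in 3 of 3 E13.5 and 3 of 3 E12.0 libraries, and the downstream start in 3 of 3 E13.5 and 1 of 3 E12.0 libraries. Each start had H3K27ac in 1 of 2 E13.5 and 1 of 2 E12.0 libraries. No Tead peak lay within 1 kb of the downstream start, and 1 of 2 Tead libraries had one at the upstream start. The RNA tables give 1 count per gene, so the starts cannot be told apart in RNA.

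Most FACIT collagens rose, among them the 3 chains of collagen IX, the trimer that coats collagen II fibrils. Of 9 genes, 8 passed the filter, 6 rose, none fell, and the median log2 fold change was 2.04. Col9a2 had 911 and 740.2 CPM in the E13.5 libraries, against 213 and 203 CPM in the E12.0 libraries, Col9a1 had 381 and 468 CPM in the E13.5 libraries, against 197 and 190.1 CPM in the E12.0 libraries, and Col9a3 had 274 and 241 CPM in the E13.5 libraries, against 28.7 and 29.1 CPM in the E12.0 libraries. No stage overlapped for any of these chains. Col9a3 rose most, by 3.15 ± 0.26 (SE; adjusted p = 1.58e-05), then Col9a2 by 1.99 ± 0.25 (SE; adjusted p = 0.00019) and Col9a1 by 1.14 ± 0.24 (SE; adjusted p = 0.00372) (edgeR). Per length, Col9a3 was 22.4% and 20.5% of collagen IX TPM at E13.5, against 7.23% and 6.21% at E12.0. Col9a1 was 19.9% and 27.4% at E13.5, against 36.2% and 33.4% at E12.0, while Col9a2 stayed between 52.1% and 60.4% in all 4 libraries.

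Col14a1 and Col16a1 link fibrils to surrounding matrix and also rose, at lower levels. Col14a1 had 11.1 and 23.6 CPM in the E13.5 libraries, against 1.65 and 1.77 CPM in the E12.0 libraries, and Col16a1 had 13.48 and 6.02 CPM in the E13.5 libraries, against 1.38 and 0.824 CPM in the E12.0 libraries. The stages did not overlap, with log2 fold changes of 3.34 ± 0.58 (SE; adjusted p = 0.00118) and 3.15 ± 0.71 (SE; adjusted p = 0.00495) in edgeR. The length assigned to Col16a1 was 3979 and 3576 bp at E13.5, against 1004 and 951 bp at E12.0, and on log2(TPM + 1) its log2 fold change was 1.34 (limma, adjusted p = 0.0304). Col20a1 had 8.002 and 5.38 CPM in the E13.5 libraries, against 1.24 and 1.88 CPM in the E12.0 libraries and rose by 2.09 ± 0.67 (SE; adjusted p = 0.0266), edgeR. That call was lost on TPM with limma (adjusted p = 0.0973), without E13.5 replicate 1 (0.119) and without E12.0 replicate 1 (0.0944), in a range of 0.00894 to 0.119 over all settings. Col22a1, a collagen of tissue junctions, had 2.10 and 2.67 CPM in the E13.5 libraries, against 1.79 and 1.41 CPM in the E12.0 libraries, and Col12a1 had 0.429 and 0.975 CPM in the E13.5 libraries, against 0 and 2.71 CPM in the E12.0 libraries; neither passed the test, at 0.57 ± 0.76 (SE; adjusted p = 0.562) and -0.96 ± 1.28 (SE; adjusted p = 0.566) (edgeR).

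Col9a1 has RefSeq starts 17593 bp apart, of which the data showed open chromatin at the downstream one, so both promoters are shown. The windows are chr1:24177360-24177659 (upstream) and chr1:24194953-24195252 (downstream), both on the plus strand, and neither holds any of the 5 motifs searched, so nothing is in capitals.
Col9a1 upstream: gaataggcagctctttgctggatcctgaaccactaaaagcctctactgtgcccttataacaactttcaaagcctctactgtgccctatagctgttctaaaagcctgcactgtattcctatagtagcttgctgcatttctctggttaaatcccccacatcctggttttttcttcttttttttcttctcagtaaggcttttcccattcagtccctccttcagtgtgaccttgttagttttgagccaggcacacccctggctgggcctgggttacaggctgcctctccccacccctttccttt
Col9a1 downstream: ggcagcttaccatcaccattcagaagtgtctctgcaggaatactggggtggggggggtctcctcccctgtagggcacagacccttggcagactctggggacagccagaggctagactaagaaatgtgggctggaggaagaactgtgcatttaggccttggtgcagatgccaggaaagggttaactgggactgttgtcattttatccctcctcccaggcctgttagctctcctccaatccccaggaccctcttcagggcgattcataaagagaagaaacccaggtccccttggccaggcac
Within 1 kb of the upstream start no library of any assay had a peak. At the downstream start, ATAC had peaks in 3 of 3 E13.5 and 3 of 3 E12.0 libraries, H3K27ac in 2 of 2 E13.5 and 2 of 2 E12.0 libraries, and Tead in both E12.0 libraries. The peak of the second E12.0 H3K27ac library itself began 1041 bp after the start and counted through the merged region. The largest deposited ATAC fold just inside the gene was 12.6, 11.3 and 11.6 in the E13.5 libraries, against 7.69, 8.32 and 5.64 in the E12.0 libraries. Fold values describe each library's own list and were not compared by a test. Col9a1 was the only one of the 40 expressed genes with a single promoter H3K27ac region held by every H3K27ac library. This depended on the merging, since Col2a1 had promoter H3K27ac in 2 of 2 E13.5 and 2 of 2 E12.0 libraries without 1 shared region.

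**Figure D3:**
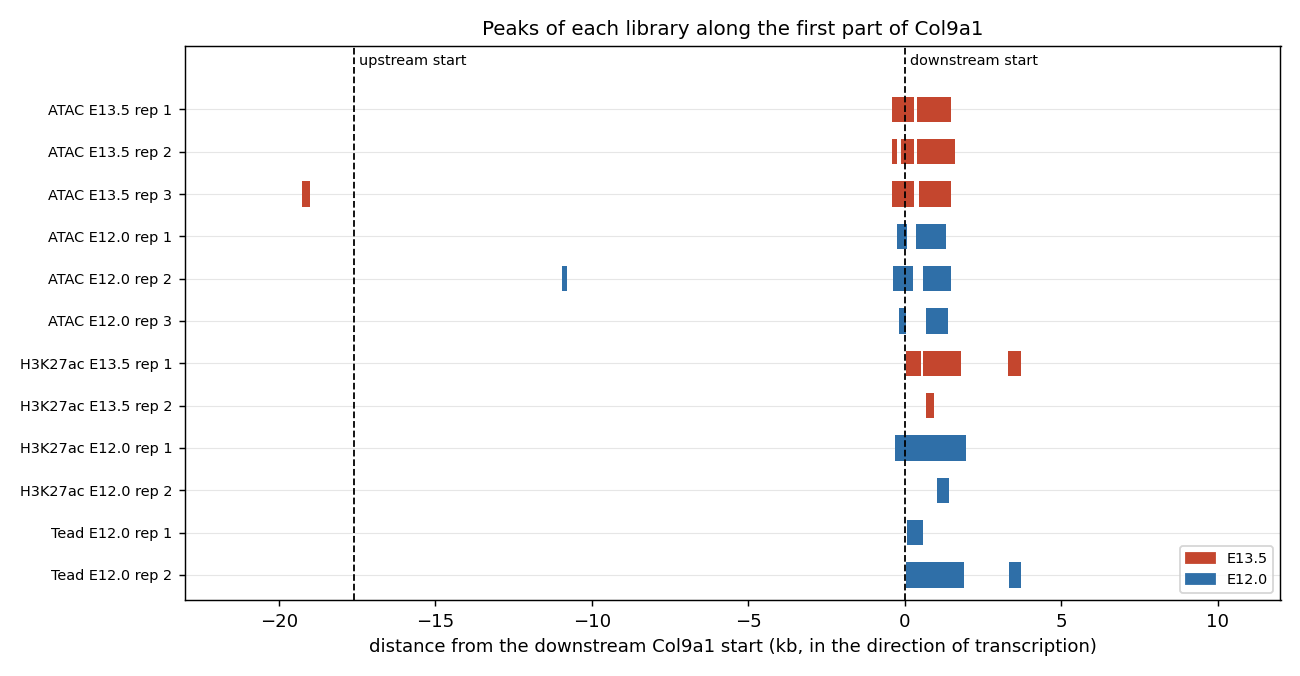
Peaks of each ATAC, H3K27ac and Tead library along the first part of Col9a1, drawn as bars against the distance in kb from the downstream start. E13.5 libraries stand above E12.0 within each assay; peaks of all 12 libraries lie at or shortly after the downstream start and none touches the upstream start, 17593 bp before it.

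Collagen VI, whose trimers form beaded microfilaments at the cell border, rose in its first 2 chains. Of the 9 microfibrillar and network collagens, 4 passed the filter, 3 rose and none fell. Col6a1 had 188 and 191 CPM in the E13.5 libraries, against 32.9 and 39.4 CPM in the E12.0 libraries, and Col6a2 had 16.003 and 15.4 CPM in the E13.5 libraries, against 1.24 and 4.24 CPM in the E12.0 libraries. Their values did not overlap between stages, and the log2 fold changes were 2.39 ± 0.25 (SE; adjusted p = 6.52e-05) and 2.50 ± 0.61 (SE; adjusted p = 0.00745) in edgeR. Col6a3, the chain that completes the trimer, had 8.29 and 0.932 CPM in the E13.5 libraries, against 0.138 and 1.77 CPM in the E12.0 libraries, so the first E13.5 library alone stood high. Its log2 fold change of 2.23 ± 1.17 (SE; adjusted p = 0.142) was not called in edgeR, and it was -0.06 without E13.5 replicate 1 and 5.02 without E12.0 replicate 2 (adjusted p = 0.978 and 0.0354, of 0.0257 to 0.978 over all settings). Per length, Col6a1 held 88.0% to 96.3% of collagen VI TPM in the 4 libraries. Col8a2, a network collagen of corneal membrane, had 1.29 and 1.40 CPM in the E13.5 libraries, against 0.138 and 0.118 CPM in the E12.0 libraries and was called higher at 3.32 ± 1.08 (SE; adjusted p = 0.0288) in edgeR. Leaving out any 1 library ended the Col8a2 call, with adjusted p of 0.094 and 0.107 without E13.5 replicates 1 and 2 and of 0.107 and 0.119 without E12.0 replicates 1 and 2, and so did DESeq2 (0.149), no filter on low counts (0.0821), TPM with limma (0.0623) and the replicate block (0.0983), and over all settings it ran between 0.0121 and 0.149.

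Of the 6 membrane-spanning and other collagens, 3 passed the filter and they moved apart. Col25a1, a transmembrane collagen best known from neurons, had 31.5 and 28.4 CPM in the E13.5 libraries, against 3.30 and 3.41 CPM in the E12.0 libraries and rose by 3.15 ± 0.41 (SE; adjusted p = 0.000208), edgeR. Col26a1, a secreted collagen, had 4.72 and 2.16 CPM in the E13.5 libraries, against 13.48 and 9.65 CPM in the E12.0 libraries and fell, with a log2 fold change of -1.75 ± 0.59 (SE; adjusted p = 0.0328), edgeR. The Col26a1 call was lost without TMM scaling (adjusted p = 0.129), on TPM (0.24), without E13.5 replicate 2 (0.141) and without E12.0 replicate 1 (0.131), in a range of 0.0131 to 0.24. Col13a1, a transmembrane collagen of neuromuscular junctions, had 2.48 and 1.53 CPM in the E13.5 libraries, against 0.275 and 0.471 CPM in the E12.0 libraries, and its log2 fold change of 2.38 ± 0.93 (SE; adjusted p = 0.0572) was not called in edgeR though the stages did not overlap.

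Most laminin alpha chains and both tested beta chains rose. Of 5 alpha chains, 4 passed the filter and 3 rose; of 3 beta chains, 2 passed and both rose. Lama5, the alpha chain of most mature epithelial basement membranes, had 239 and 177 CPM in the E13.5 libraries, against 52.8 and 56.5 CPM in the E12.0 libraries and rose by 1.93 ± 0.26 (SE; adjusted p = 0.000269), edgeR. Lama5 was 93.2% to 96.4% of laminin alpha TPM in the 4 libraries. Its assigned transcript length was 4000 and 4004 bp at E13.5, against 908 and 1086 bp at E12.0, and on log2(TPM + 1) the call was lost (log2 fold change 0.56, limma, adjusted p = 0.109). Lama1, the alpha chain of early embryonic basement membranes, had 15.4 and 16.02 CPM in the E13.5 libraries, against 6.19 and 7.77 CPM in the E12.0 libraries, and Lama2, the alpha chain of muscle and Schwann cell basement membranes, had 4.38 and 8.35 CPM in the E13.5 libraries, against 0.550 and 1.18 CPM in the E12.0 libraries. Neither pair of stages overlapped, at 1.17 ± 0.44 (SE; adjusted p = 0.04999) for Lama1 and 2.86 ± 0.77 (SE; adjusted p = 0.0119) for Lama2 (edgeR). Leaving out any 1 library ended the Lama1 call (adjusted p = 0.115 and 0.142 without E13.5 replicates 1 and 2, 0.125 and 0.062 without E12.0 replicates 1 and 2), and so did DESeq2 (0.055) and the replicate block (0.0572), in a range of 0.00866 to 0.142. The Lama2 call was lost without E13.5 replicate 2 (0.0769) and without E12.0 replicate 1 (0.0509), in a range of 0.00148 to 0.0769. Lama4, of vessel walls, had 4.29 and 4.15 CPM in the E13.5 libraries, against 3.99 and 1.29 CPM in the E12.0 libraries and was not called, at 0.68 ± 0.73 (SE; adjusted p = 0.468) (edgeR) and -0.24 on log2(TPM + 1).

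The beta chains rose together. Lamb1, the beta chain of most embryonic laminins, had 227 and 247 CPM in the E13.5 libraries, against 49.1 and 46.4 CPM in the E12.0 libraries, and Lamb2, that of neuromuscular and kidney basement membranes, had 162 and 107 CPM in the E13.5 libraries, against 20.1 and 24.2 CPM in the E12.0 libraries. Neither gene's stages overlapped, with log2 fold changes of 2.31 ± 0.25 (SE; adjusted p = 6.51e-05) and 2.60 ± 0.30 (SE; adjusted p = 0.000108), edgeR. Lamb1 was 53.0% and 66.2% of laminin beta TPM at E13.5, against 70.9% and 46.3% at E12.0, so the split between the beta chains overlapped between stages.

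**Figure D4:**
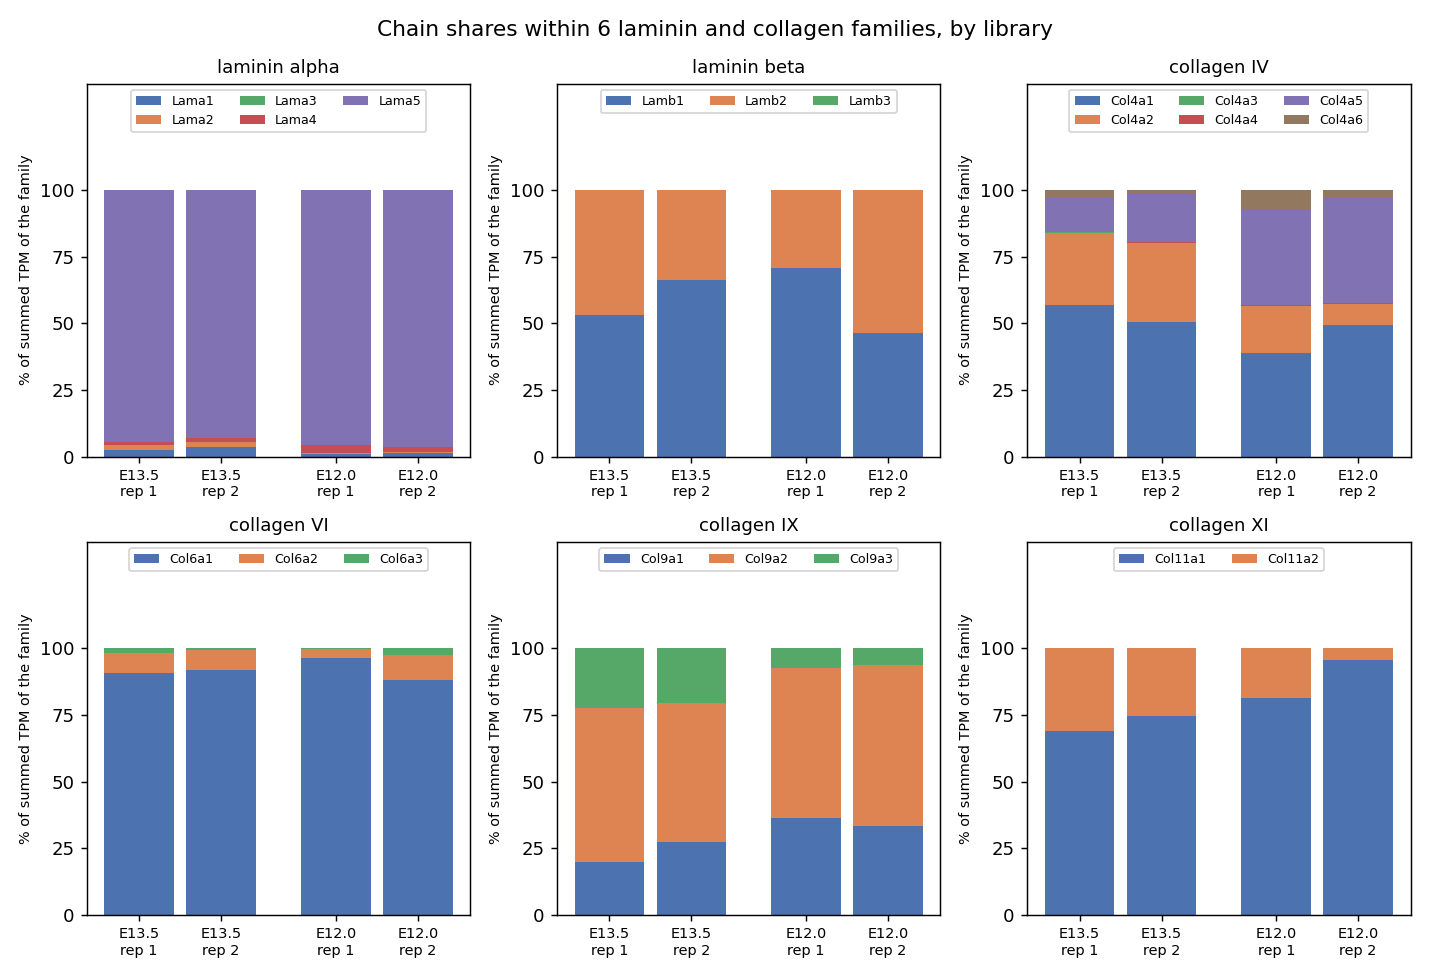
Share of each chain in the summed TPM of its family (percent, stacked bars) for 2 laminin and 4 collagen families, with the 2 E13.5 libraries left of the 2 E12.0 libraries. Col9a3 made up 22.4% and 20.5% of collagen IX at E13.5, against 7.23% and 6.21% at E12.0, while Lama5 and Col6a1 filled most of their families' bars in all 4 libraries.

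Of the laminin gamma chains, Lamc1 fell and Lamc3 rose. Lamc1 (chr1:153218922-153332786), the gamma chain of nearly all laminins, had 125 and 129 CPM in the E13.5 libraries, against 299 and 394 CPM in the E12.0 libraries. Lamc3 (chr2:31887281-31949083), found in peripheral nerve, retina and brain, had 37.5 and 36.4 CPM in the E13.5 libraries, against 0.550 and 1.41 CPM in the E12.0 libraries. The stages overlapped for neither gene. Lamc1 fell by 1.45 ± 0.25 on the log2 scale (adjusted p = 0.00113) and Lamc3 rose by 5.19 ± 0.51 (SE; adjusted p = 3.98e-05), edgeR. Both calls held under each of the 10 alternative settings. In edgeR Lamc3 had the largest log2 fold change of the 40 genes, whereas on log2(TPM + 1) that of Col9a3 (4.15) was above that of Lamc3 (3.66). The length that the files assigned to Lamc1 was 6574 and 6379 bp at E13.5, against 1821 and 1886 bp at E12.0. Lamb3 and Lama3, a beta and an alpha chain of epithelial laminins, were below the filter, with at most 1 and 7 counts in any library.

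Each of the 15 genes below the filter summed to at most 58 counts over the 4 libraries. Col6a4, Col6a5, Col6a6, Col17a1 and Col28a1 had no count in any library, where a count of 0 allows up to 3 counts of each library's total. Col5a3 had 2 and 23 counts at E13.5 and 0 and 0 at E12.0, and Col8a1 had 29 and 3 at E13.5 and 0 and 0 at E12.0. Col24a1 had 4 and 45 counts at E13.5, against 6 and 3 at E12.0, and Col4a3 had 30 and 3 at E13.5, against 0 and 2 at E12.0. In these 4 genes 1 E13.5 library held most of the counts. Col15a1, Col19a1, Col10a1, Col23a1, Lama3 and Lamb3 had between 0 and 21 counts in each library.

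Genes that fold and modify collagen changed in both directions, as did all genes tested, of which 22.4% rose and 23.5% fell. Of 20 chaperones and modifying enzymes, 19 passed the filter, 6 rose, 2 fell, and the median log2 fold change was 0.34, or 1.15 on log2(TPM + 1), where 11 rose and 2 fell while all genes had a median of 0.76. All 3 lysyl hydroxylases (Plod1, Plod2 and Plod3) rose. Plod1 had 39.7 and 60.2 CPM in the E13.5 libraries, against 8.25 and 11.2 CPM in the E12.0 libraries and rose by 2.36 ± 0.36 (SE; adjusted p = 0.000588), and Fkbp10, a prolyl isomerase that assists lysyl hydroxylation, had 86.9 and 124 CPM in the E13.5 libraries, against 12.9 and 16.2 CPM in the E12.0 libraries and rose by 2.85 ± 0.31 (SE; adjusted p = 7.24e-05) (edgeR). Colgalt2, a collagen galactosyltransferase, had 49.4 and 43.6 CPM in the E13.5 libraries, against 9.08 and 10.4 CPM in the E12.0 libraries and rose by 2.26 ± 0.33 (SE; adjusted p = 0.000431), edgeR. The other collagen galactosyltransferase, Colgalt1, named after its values were seen, had 88.0 and 95.1 CPM in the E13.5 libraries, against 244 and 228 CPM in the E12.0 libraries and fell, at -1.37 ± 0.24 (SE; adjusted p = 0.00111) in edgeR, a call lost on TPM (log2 fold change -0.55, limma, adjusted p = 0.103). Crtap, a subunit of the prolyl 3-hydroxylase complex, also fell, with 4.38 and 14.4 CPM in the E13.5 libraries, against 121 and 42.5 CPM in the E12.0 libraries and a log2 fold change of -3.11 ± 0.60 (SE; adjusted p = 0.00201), edgeR. Serpinh1, the collagen chaperone HSP47, was not called in edgeR (log2 fold change -0.05, adjusted p = 0.884). On log2(TPM + 1) it was called higher (0.80, limma, adjusted p = 0.0433), where all genes had a median of 0.76.

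Of 14 genes that trim or cross-link collagen, 11 passed the filter, 2 rose, 2 fell, and the median was -0.05. These shares lay near those of all genes tested, of which 22.4% rose and 23.5% fell. On log2(TPM + 1), 4 of the 11 genes rose and none fell. Adamts14, a procollagen N-proteinase, had 45.5 and 41.9 CPM in the E13.5 libraries, against 3.16 and 7.06 CPM in the E12.0 libraries and rose by 3.08 ± 0.43 (SE; adjusted p = 0.000323), edgeR. Tll1, of the procollagen C-proteinase family, had 42 and 21 counts at E13.5 and 0 and 0 counts at E12.0, at least 7.42-fold higher against a floor of 3 counts over the E12.0 libraries (edgeR adjusted p = 0.00983, lost without E13.5 replicate 1 at 0.066, with a range of 0.0049 to 0.066). Loxl2, a lysyl oxidase, had 0.667 and 0.254 CPM in the E13.5 libraries, against 3.58 and 4.94 CPM in the E12.0 libraries and fell, at -3.20 ± 0.86 (SE; adjusted p = 0.0122) in edgeR. Pxdn, the peroxidase that cross-links collagen IV, had 180.5 and 199 CPM in the E13.5 libraries, against 324 and 465 CPM in the E12.0 libraries and fell, at -1.06 ± 0.26 (SE; adjusted p = 0.00805) in edgeR. The Loxl2 call was lost on TPM (adjusted p = 0.0954) and without E13.5 replicate 2 (0.0556), in a range of 0.00525 to 0.0954. The Pxdn call was lost without TMM scaling (0.164), on TPM (0.794) and without E12.0 replicate 2 (0.0663), in a range of 0.00012 to 0.794.

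Other basement membrane components changed in both directions, and the balance depended on scaling. Over all genes tested, 22.4% rose and 23.5% fell in the main fit. Of 16 genes, 15 passed the filter, 3 rose and 7 fell, and the median was -0.68 (log2); without TMM scaling 4 rose and 4 fell, and on log2(TPM + 1) 5 rose and 3 fell, with a median of 0.28. Hspg2, the heparan sulfate proteoglycan perlecan, had 2.33 and 2.03 CPM in the E13.5 libraries, against 26.0 and 35.1 CPM in the E12.0 libraries and fell, at -3.80 ± 0.43 (SE; adjusted p = 9.53e-05) in edgeR. Nidogens link laminin to collagen IV, and Nid2 had 3.29 and 4.196 CPM in the E13.5 libraries, against 18.2 and 17.2 CPM in the E12.0 libraries while Nid1 had 4.91 and 4.62 CPM in the E13.5 libraries, against 0.825 and 1.06 CPM in the E12.0 libraries. Nid2 fell, at -2.24 ± 0.47 (SE; adjusted p = 0.00315), and Nid1 rose, by 2.32 ± 0.73 (SE; adjusted p = 0.0241) (edgeR). Smoc1, a calcium-binding matrix protein, had 5.38 and 6.99 CPM in the E13.5 libraries, against 17.3 and 56.6 CPM in the E12.0 libraries and fell, at -2.58 ± 0.53 (SE; adjusted p = 0.00291) in edgeR. On TPM the Nid2 and Smoc1 calls were lost (adjusted p = 0.0544 and 0.0812, the highest of any setting). Leaving out any 1 library ended the Nid1 call (adjusted p = 0.0687 and 0.0587 without E13.5 replicates 1 and 2, 0.0858 and 0.0565 without E12.0 replicates 1 and 2, and 0.00827 to 0.0858 over all settings). The mesenchyme markers Lum, Vim and Postn fell alongside this list, and their part in the result was not tested.

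Of 13 collagen and laminin receptors, 9 passed the filter, 4 rose and 1, Itga6, fell, where 22.4% of all genes tested rose and 23.5% fell. Without TMM scaling 6 receptors rose and none fell. Itga2 and Itga11 are collagen-binding integrin alpha chains, Bcam binds Lama5, and Itgb4 belongs to the hemidesmosome integrin. Itga2 had 1.48 and 1.36 CPM in the E13.5 libraries, against 0 and 0.118 CPM in the E12.0 libraries, Itga11 had 5.86 and 6.31 CPM in the E13.5 libraries, against 0.413 and 2.24 CPM in the E12.0 libraries, Bcam had 22.5 and 54.9 CPM in the E13.5 libraries, against 6.74 and 14.5 CPM in the E12.0 libraries, and Itgb4 had 13.003 and 11.5 CPM in the E13.5 libraries, against 3.85 and 3.41 CPM in the E12.0 libraries. All 4 were called higher, with log2 fold changes of 4.33 ± 1.28 (SE; adjusted p = 0.0185), 2.17 ± 0.81 (SE; adjusted p = 0.048), 1.86 ± 0.50 (SE; adjusted p = 0.0121) and 1.75 ± 0.51 (SE; adjusted p = 0.0179) in edgeR. All 4 calls depended on single libraries. Without E13.5 replicate 1, adjusted p was 0.0666 for Itga2, 0.0776 for Itga11 and 0.0656 for Itgb4; without E13.5 replicate 2 it was 0.0547 for Itga2, 0.0976 for Itga11 and 0.141 for Bcam; without E12.0 replicate 1 it was 0.0983 for Itga2 and 0.169 for Itga11. Itga2 was also lost in DESeq2 (0.0909) and under the replicate block (0.05003), and Itgb4 on TPM (0.269).

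Of 15 matrix proteases and inhibitors, 9 passed the filter, 3 rose and 1 fell, where 22.4% of all genes tested rose and 23.5% fell. Mmp14, the membrane collagenase that activates Mmp2, had 191 and 246 CPM in the E13.5 libraries, against 101 and 81.1 CPM in the E12.0 libraries and rose by 1.27 ± 0.26 (SE; adjusted p = 0.00281), edgeR. Mmp2, which cleaves basement membrane collagen, had 104 and 171 CPM in the E13.5 libraries, against 82.9 and 73.5 CPM in the E12.0 libraries, and Mmp11 had 43.9 and 61.6 CPM in the E13.5 libraries, against 29.4 and 26.0 CPM in the E12.0 libraries. They rose by 0.82 ± 0.29 (SE; adjusted p = 0.0382) and 0.93 ± 0.30 (SE; adjusted p = 0.0292) in edgeR. Mmp15, another membrane protease, had 5.10 and 6.61 CPM in the E13.5 libraries, against 41.0 and 30.02 CPM in the E12.0 libraries and fell, at -2.60 ± 0.38 (SE; adjusted p = 0.00044), edgeR. Without E13.5 replicate 2, adjusted p was 0.343 for Mmp2 and 0.221 for Mmp11, without E12.0 replicate 2 it was 0.114 for Mmp2 and 0.0777 for Mmp11, and without E12.0 replicate 1 it was 0.0642 for Mmp2.

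Open chromatin near the 40 expressed genes was found more often at E13.5 alone than at E12.0 alone. Peaks of the 6 ATAC libraries were merged into regions, and a region counted for a gene if it lay within 10 kb of the gene's span. In all, 80 regions were held at E13.5 only (by its 3 libraries and by none of E12.0), 0 were held at E12.0 only, and 123 by all 6 libraries. At least 1 region held at E13.5 only lay near 26 of the 40 genes (65%), against 35.8% of 12488 expressed protein-coding genes. The windows of the 40 genes were longer, with a median of 115.5 kb against 45.1 kb for the other expressed genes. Per 100 kb of window, there were 1.43 regions held at E13.5 only near the 40 genes and 0.999 near the others, and 2.23 regions held by all libraries near the 40 genes against 2.95 near the others. A region held at E12.0 only lay near 0.625% of all expressed genes, and one held by all 6 libraries near 37 of the 40 genes (92.5%, against 97.4%). The E13.5 lists were larger, with 208061 to 226496 entries of a median width of 403 to 431 bp, against 112621 to 143817 entries of 211 to 269 bp at E12.0. Some intervals were entered more than once, so these are not numbers of distinct peaks. A stage-only count cannot be told apart from the length of the lists.

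**Figure D5:**
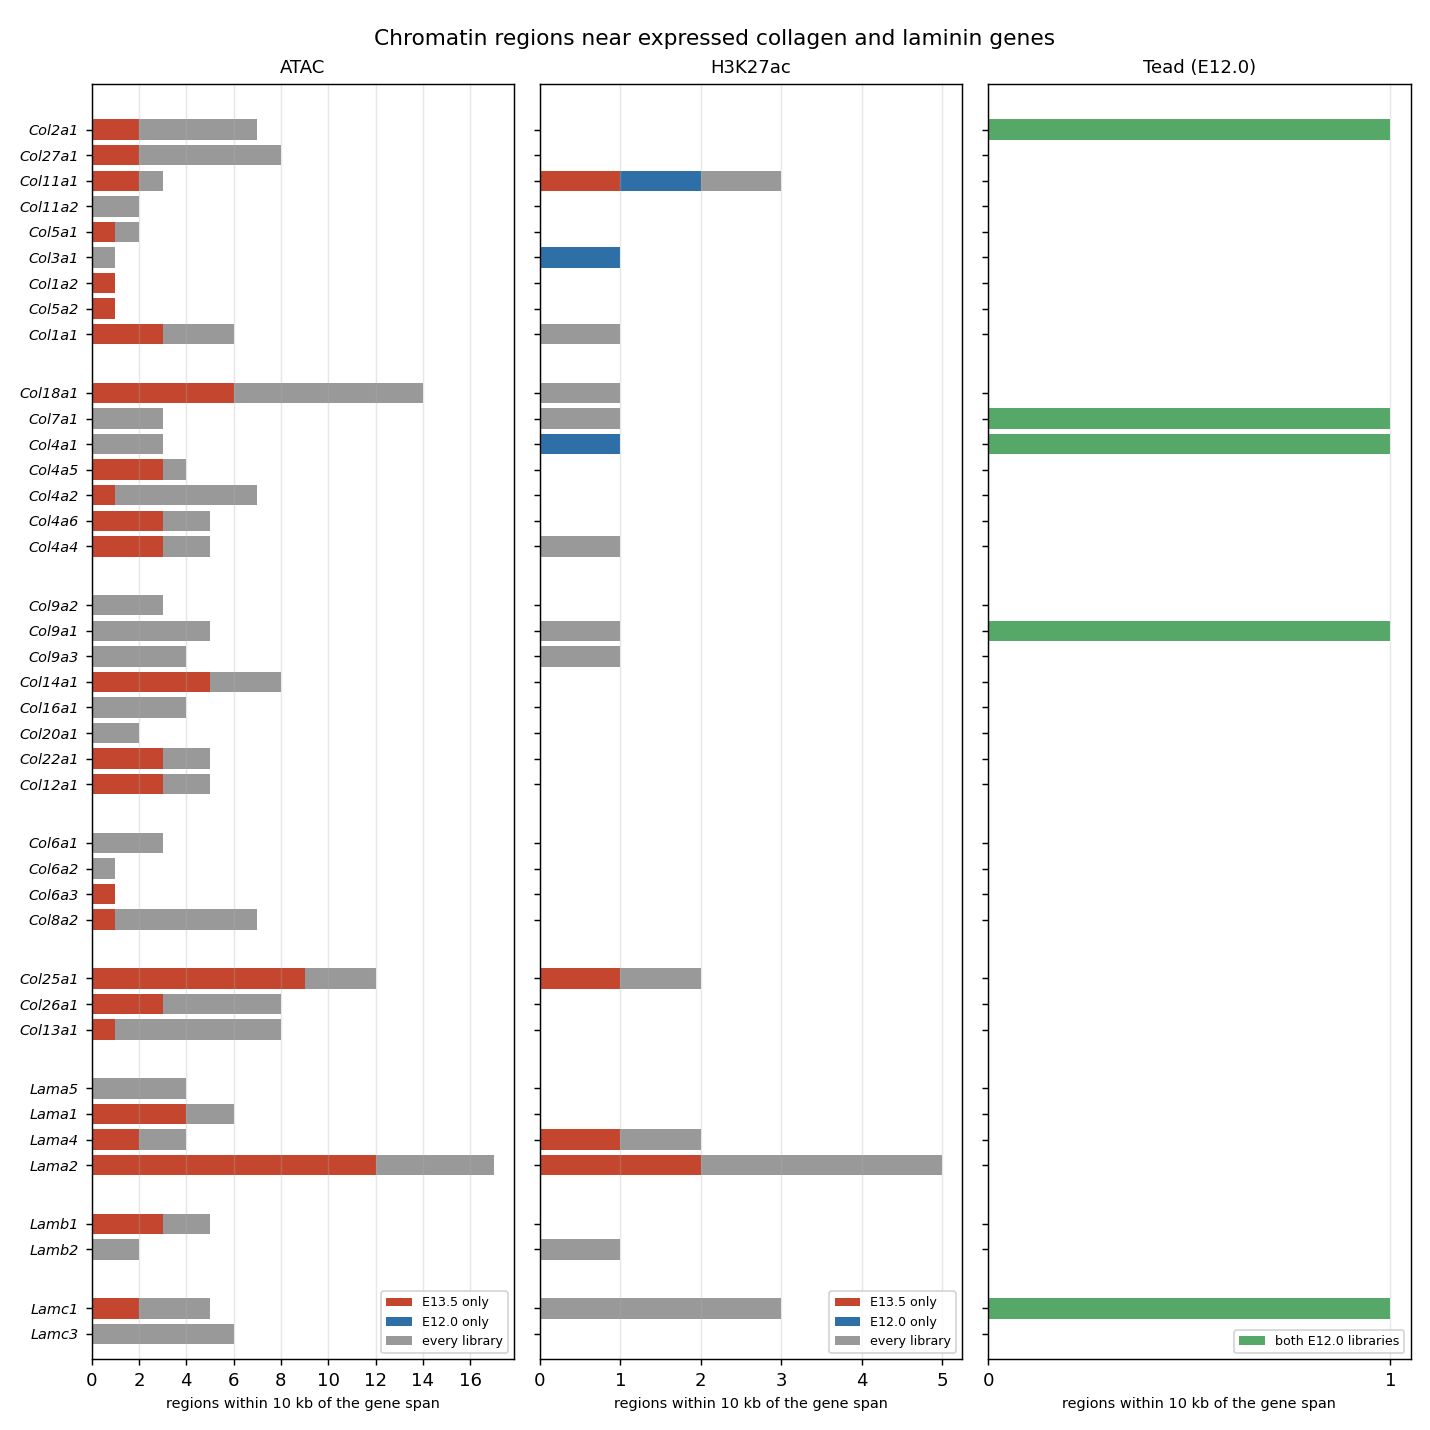
Number of chromatin regions within 10 kb of each expressed gene (bars, stacked), for ATAC, H3K27ac and Tead, in the gene order of the RNA plots. Lama2 had the most ATAC regions held at E13.5 only (12), followed by Col25a1 (9) and Col18a1 (6), and no gene had an ATAC region held at E12.0 only.

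Of the 80 regions held at E13.5 only, 75 lay inside a gene's span and 5 in the flanks. Lama2, which spans 636 kb, had 12, Col25a1 over 419.5 kb had 9, Col18a1 had 6 and Col14a1 had 5. By class, 18 lay near laminin alpha genes, 16 near basement membrane collagens, 13 near membrane-spanning and other collagens, 12 near fibrillar collagens, and 11 near FACIT collagens, with fewer near each of the other classes. Ranked by the lowest deposited fold among the E13.5 libraries, the first were in Lama2, at chr10:27001514-27002008 (9.78 to 12.6 over the E13.5 libraries) and chr10:27344161-27344616 (9.63 to 10.1). The next were inside Col5a1 at chr2:27934174-27935203 (7.99 to 10.6), inside Col25a1 at chr3:130310695-130311209 (7.81 to 12.4) and inside Col4a6 at chrX:141212795-141213165 (7.45 to 8.24). One lay 1719 bp outside the Col14a1 span, at chr15:55522522-55523441 (7.27 to 10.4). Of the 26 genes with such a region, 13 rose, 2 fell and 11 were not called, and of the 14 genes without one, 12 rose and 2 were not called. The groups also differed in level, with a lowest mean TPM of 0.163 and 1.26. The same split was not made over all expressed genes, and a link between such regions and RNA was not tested.

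Promoters were open at both stages for most of the expressed genes. In 33 of the 40 genes (82.5%, against 91.7% of expressed protein-coding genes) 1 promoter region was held by all 6 ATAC libraries. Such a region lay within 1 kb of a start or, for genes without a RefSeq start, of either end of the gene span. Of these 33 genes, 24 rose, 2 fell and 7 were not called. The other 7 genes were Col3a1, Col6a3 and Col22a1, with no promoter peak in any library, and Col1a2, Col5a2, Col8a2 and Col12a1, with no region held by every library. Their mean TPM lay between 0.313 and 1.26, and 1 of them, Col8a2, was called higher. At the Col8a2 start ATAC was found in 3 of 3 E13.5 and 1 of 3 E12.0 libraries, and a region held at E13.5 only lay 1231 bp into the gene at chr4:126288025-126288610.

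H3K27ac gave few regions that libraries shared, and its lists differed strongly within a stage. Near the 40 genes, 5 regions were held at E13.5 only (4 genes, 10%, against 10.4% of expressed genes), 4 at E12.0 only (4 genes, 10%, against 9.39%) and 16 in all 4 libraries (12 genes, 30%, against 30.3%). A single promoter region held by all 4 libraries was found for Col9a1 alone (2.5%, against 17% of expressed genes). Col2a1, given both span ends for want of a RefSeq start, also had promoter H3K27ac in every library, but not in 1 shared merged region. In single libraries, a promoter H3K27ac region was held for 29 and 8 of the 40 genes at E13.5, where expressed genes reached 80.5% and 26.4%, and for 15 and 10 of the 40 genes at E12.0, where they reached 66.9% and 45.4%. The first E12.0 library was made with another library kit than the other 3, per the labels, and its part in these counts was not tested. Of the regions held at E13.5 only, 2 lay inside Lama2, 1 inside Lama4, 1 inside Col25a1 and 1 at the Col11a1 promoter. Those held at E12.0 only included regions inside Col4a1 (chr8:11298770-11299645), Col11a1 (chr3:114052824-114053417) and Col3a1 (chr1:45315919-45316391). Lamc1, the gamma chain that fell, had 3 regions inside its span that all 4 libraries held.

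Tead factors are the DNA-binding partners of the Hippo pathway effector Yap, and they were profiled at E12.0 alone, with a different library kit for each of the 2 libraries per the labels. Both Tead libraries held 5 regions near 5 of the 40 genes (12.5%, against 10.4% of expressed genes), and 2 lay at a promoter, those of Col9a1 and Col2a1 (5%, against 4.91%). The Col11a1 start also had Tead in 2 of 2 libraries, but not in 1 shared merged region, so it was not counted. The Col9a1 region, chr1:24195234-24197091, began 31 bp after the downstream start, with deposited folds of 3.03 and 3.11, and overlapped ATAC and H3K27ac regions that every library held. The Col2a1 region, chr15:98003700-98004194, ended 530 bp inside the gene's span end and overlapped no such ATAC or H3K27ac region. The Lamc1 region, chr1:153272968-153273941, and the Col7a1 region, chr9:108990887-108992735, 37301 bp from the Col7a1 start and beyond the gene, both overlapped ATAC and H3K27ac regions held by every library. The fifth, chr8:11198206-11198797, lay at the far end of Col4a1. Of these 5 genes, 3 rose by E13.5, Lamc1 fell and Col4a1 was not called, a share near that of all 40 expressed genes, of which 25 (62.5%) rose.

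RefSeq promoter windows of 300 bases were found for 27 of the 40 expressed genes, 30 windows in all, in the GRCm38.p6 table. Motifs were searched on both strands: GGAATG (Tead) was in 5 of the 30 windows (16.7%, against 14.7% of 32851 windows), TGANTCA (AP-1) in 1 (3.33%, against 7.81%), ATTGTT (Sox) in 1 (3.33%, against 10.7%) and TATAAA in 3 (10%, against 13.6%). GGGCGG (Sp1 and Klf) was in 20 windows (66.7%, against 35.7%), while median GC was 60.5% in the 30 windows and 52.67% in all. The Tead letters occurred in windows of Col3a1, Col20a1, Col6a2, Col4a6 and Col18a1. None of these genes had a Tead region held by both libraries within 10 kb, though 1 Tead library had a region at the Col20a1 start. Among the genes with such a region, Col2a1 and Lamc1 had no window, and the Col4a1 and Col7a1 regions lay away from the promoter. Col9a1 had its region at the downstream start, and neither of its windows held the Tead letters. These matches describe letters in a window and were not tested.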

How the data were processed

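Deposited gene tables from the authors hold expected counts (estimates, often fractional) and, for each Ensembl gene, a length and an effective length. Which program made these tables is not given in the sources. Of 48709 identifiers, 48349 matched a symbol. Peaks were deposited as 1 list per library, per the file headers, with a fold (the ratio of signal to local background), −log10 p and −log10 q as the authors gave them. The deposited score column was left aside. STAR, UMI-tools and MACS2 appear without versions in the submitters' processing notes, beside the build GRCm38/mm10.

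Expected counts were rounded and tested with edgeR 4.0.16 (R 4.3.3) after filterByExpr (minimum count 10) and TMM scaling. The test was a quasi-likelihood F test of E13.5 against E12.0, 2 libraries a stage, with Benjamini-Hochberg adjustment over 15982 genes. A count of 10 is 0.511 to 1.06 CPM by library before TMM scaling. The filter applied a single CPM cutoff, set at the median library size. CPM values are TMM-scaled, TPM were computed from expected counts and effective lengths, and SE is the absolute log2 fold change divided by the root of F. Alternatives were DESeq2 1.42.0, limma 3.58.1 on log2(TPM + 1), no TMM factors, other filters, a replicate block and leaving out each library. The edgeR, DESeq2 and limma fits and the merging of intervals were checked on simulated data. Peaks of an assay were merged (Python 3.11.15), and a library held a region that its peaks overlapped by 1 bp or more; a gene without a RefSeq start was given both span ends. A peak is present or absent here, with no count behind it, and intervals and depth of the peak libraries are unknown.

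Classes, related lists and markers were chosen with earlier results of these data known. All tested genes are named but 1, which is not reported here. From each related list, up to 4 called genes with the largest absolute log2 fold change are named. Others are given by name only, apart from Colgalt1 and Serpinh1.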

Additional observations from a re-analysis of the deposited data

How the results depend on the processing

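The 25 rises numbered 20 to 28 over the 10 alternatives. The 2 falls became 1 without TMM scaling and 1 on TPM, and 1 to 3 when single libraries were left out. The median log2 fold change of 1.94 was 2.51 without TMM scaling (all genes 0.62), 1.31 on log2(TPM + 1) (all genes 0.76) and 1.70 to 2.13 when single libraries were left out. Under the replicate block the rises were 23, the falls 2 and the median 1.85. The numbers were not shown to pair the libraries: the deviations of same-numbered libraries correlated at 0.0101. Of 599 pairs of a named gene and a setting, 521 kept direction and side of the threshold, 56 lost the call, 9 gained one and 13 changed sign, none of them for a called gene. Serpinh1, Colgalt1 and Sox9 were not among the genes of these pairs. The changed signs were Lama4 (-0.24 on TPM), Col5a2 (0.15 without TMM, 0.094 on TPM, -0.75 to 0.12 when single libraries were left out), Col1a2 (0.33 without TMM, 0.23 on TPM, -2.14 to 2.50 with single libraries left out), Col4a5 (0.041 without TMM), Col12a1 (0.15 on TPM, 0.015 with the block, -1.92 to 6.62 with single libraries left out) and Col6a3 (-0.057 without E13.5 replicate 1, up to 5.02 without E12.0 replicate 2).

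Chromatin counts moved more. With −log10 q of at least 5, ATAC regions held by every library fell to 39 and promoters to 16, and H3K27ac (held at E13.5 only, at E12.0 only, by every library, at promoters) and Tead counts were all 0. In another setting, the summed widths of a library's list entries had to reach at least 0.5 of a region. ATAC held by every library was then 41, ATAC promoters 15, H3K27ac held by every library 1 and H3K27ac promoters 0. Intervals entered more than once were summed each time, so the part of a region truly covered can be smaller. With 50 kb flanks, ATAC held by every library was 208 and H3K27ac 25. Leaving out single libraries gave 89 to 125 ATAC regions held at E13.5 only and 0 to 2 held at E12.0 only. The same gave 8 to 230 H3K27ac regions held at E13.5 only, 5 to 135 at E12.0 only, 17 to 42 held by every library, 1 to 6 H3K27ac promoters, and 36 to 171 Tead regions. The cause was not tested, apart from fewer libraries being asked to hold a region. Depth was higher at E13.5, and with 2 RNA libraries a stage a missed threshold does not show equal levels.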
